A study of Homo sapiens with 4 samples.

Results

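The AP-1 and EGR genes encode transcription factors of the immediate early response. The 10 members were fixed by symbol: EGR1, EGR2 and EGR3, the Fos genes FOS, FOSB, FOSL1 and FOSL2, and the Jun genes JUN, JUNB and JUND. Every probe set annotated to exactly 1 of these symbols was taken, which gave 17 probe sets for 9 genes, of 19064 single-gene probe sets for 11963 genes in all. EGR2 had no such probe set, so its expression is not analysed here. JUN had 4 probe sets, FOSL2 and JUND 3 each, EGR1 2, and EGR3, FOS, FOSB, FOSL1 and JUNB 1 each.

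RNA came from 4 cultures of BJ-TE cells, a derivative of the human foreskin fibroblast line BJ, each hybridised to 1 Affymetrix expression array. The groups of 1 array each were p73 shRNA at 100% confluence, ns shRNA at 100%, p73 shRNA at 40% and ns shRNA at 40%, where shRNA is a short hairpin RNA, p73 is the transcription factor it targets and ns is the control hairpin. All cells carried a hairpin. None of the 4 arrays was of a second p73 hairpin, of cells without a hairpin or of a second line. The labels do not say whether the cultures were independent, and every p-value reflects only how these 4 arrays scatter, which may be technical.

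AP-1 is a dimer of basic leucine zipper proteins: Jun proteins pair with each other or with Fos proteins, whereas Fos proteins need a Jun partner. EGR proteins bind GC-rich DNA through zinc fingers. In fibroblasts given serum or growth factors, FOS, FOSB, JUNB and EGR1 are transcribed within minutes without new protein synthesis, through serum response factor (SRF) and its ternary complex factors at CArG boxes and through CREB/ATF proteins at cyclic AMP response elements (CRE), and FOSL1 follows later under sustained ERK signalling.

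The 250 bases before the annotated start of EGR1, JUND and JUN are shown because the first pair of genes rose at confluence and the third is the Jun gene with the most probe sets, which disagreed. They were taken from RefSeq (GRCh38.p14), at chr5:138465229-138465478 (plus strand) for EGR1, chr19:18281623-18281872 (minus strand) for JUND and chr1:58784048-58784297 (minus strand) for JUN. Each is written from its upstream end towards the start, and capitals mark CRE-like octamers (TGACNTCA), CRE hexamers (TGACGT) and CArG boxes, searched on both strands.
EGR1: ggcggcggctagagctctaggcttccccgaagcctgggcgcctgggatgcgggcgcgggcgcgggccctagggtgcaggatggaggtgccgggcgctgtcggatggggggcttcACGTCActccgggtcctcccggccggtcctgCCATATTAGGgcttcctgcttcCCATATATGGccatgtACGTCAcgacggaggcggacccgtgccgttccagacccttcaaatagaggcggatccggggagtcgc
JUND: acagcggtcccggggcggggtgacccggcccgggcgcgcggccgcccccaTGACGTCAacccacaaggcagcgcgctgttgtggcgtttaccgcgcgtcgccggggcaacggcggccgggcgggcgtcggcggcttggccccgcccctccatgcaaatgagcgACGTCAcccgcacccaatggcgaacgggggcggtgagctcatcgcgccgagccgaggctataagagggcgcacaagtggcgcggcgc
JUN: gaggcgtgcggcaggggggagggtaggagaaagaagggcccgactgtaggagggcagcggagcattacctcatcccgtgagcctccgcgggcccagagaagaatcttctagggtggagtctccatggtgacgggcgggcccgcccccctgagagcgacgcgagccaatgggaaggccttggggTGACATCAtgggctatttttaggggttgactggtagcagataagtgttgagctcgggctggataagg
EGR1 held 2 CArG boxes, the first bases of which lie 105 and 83 bases before its start, and 2 CRE hexamers at 136 and 67 bases. JUND held 1 CRE-like octamer at 200 bases, in which hexamers overlap on both strands, and a further hexamer at 87 bases. JUN held 1 CRE-like octamer at 67 bases and no CArG box in this window. FOS (hexamer at 64 bases), FOSB (60 bases) and FOSL2 (66 bases) each held 1 CRE hexamer, and JUNB held none of the 3 motifs. EGR2 has several annotated starts, and 1 of its windows held a CArG box at 71 bases and a CRE hexamer at 55 bases. The EGR site (GCGNGGGCG) was found in EGR1, at 198 bases, and in no other of the 8 members searched, and the AP-1 heptamer (TGANTCA) in none of them. EGR3 and FOSL1 were not searched. Of 35116 RefSeq promoters of the same length, 6.87% held the CRE-like octamer, 7.10% the CRE hexamer, 1.16% a CArG box, 8.41% the EGR site and 6.57% the AP-1 heptamer. A match describes letters in this window and is not evidence that a factor binds there.

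Intensities were used as deposited, and log2 ratios are on the scale log2(intensity + 11.6), which understates the ratios of dim genes. Fold ratios are likewise ratios of intensity + 11.6, so they differ slightly from ratios of the printed intensities. A gene was represented by its brightest probe set and tested when its mean was at least that of the median probe set, an intensity of about 110.9. Of the members, EGR1, FOSL1, FOSL2, JUN, JUNB and JUND passed this filter, and EGR3, FOS and FOSB did not. "Rose" and "fell" mark an adjusted p below 0.05 in limma's additive model of confluence and hairpin over the 4 arrays, in which the hairpins serve as the repeats of the confluence comparison and the stages as those of the hairpin comparison.

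TP73, the target of the hairpin, had intensities of 2.04 (p73 shRNA) and 1.65 (ns) at 100% confluence and of 2.09 (p73 shRNA) and 1.68 (ns) at 40%, at the dim end of every array, so it gives no check of the knockdown. Of 16 fibroblast markers, 16 passed the filter, against 1 of 8 epithelial (KRT18), 3 of 5 smooth muscle (CNN1, ACTA2 and SMTN), 0 of 6 endothelial, 0 of 4 blood and 0 of 4 melanocyte markers. The summed intensity of the fibroblast markers was 120867 (p73 shRNA) and 116341 (ns) at 100% confluence, against 106279 and 94263 at 40%; that of the smooth muscle markers was 1495 and 1839 at 100%, against 2218 and 2592 at 40%. For the beta-actin controls the ratio of 3' to 5' signal, a measure of RNA integrity, was 1.38 (p73 shRNA) and 1.47 (ns) at 100% confluence, against 1.09 and 1.24 at 40%. For the GAPDH controls it moved less, with 1.017 (p73 shRNA) and 1.021 (ns) at 100%, against 0.979 and 0.935 at 40%. These values move with confluence, and their part in the results below was not tested.

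**Figure D1:**
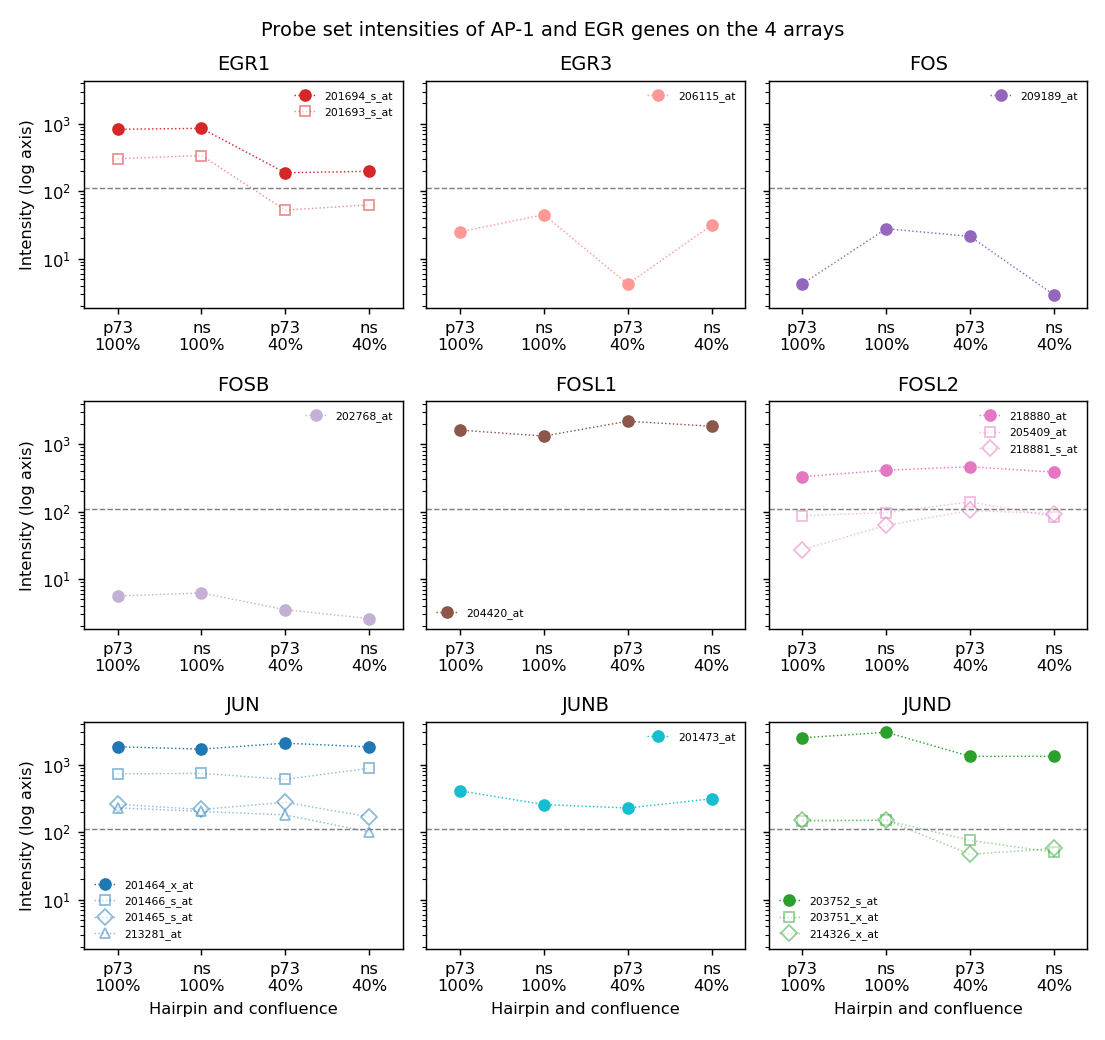
Intensity (log axis) of all 17 probe sets of 9 AP-1 and EGR genes on the 4 arrays; filled symbols mark the brightest probe set of a gene, open symbols the others, and the dashed line the brightness filter at 110.9. Both EGR1 probe sets and all 3 JUND probe sets lie higher on the arrays of confluent cells, and FOS, FOSB and EGR3 lie below the line on every array.

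The first comparison set confluent cultures against cultures at 40%. EGR1 rose about 4-fold and JUND about 2-fold with either hairpin, FOSL1 fell slightly, and FOSL2, JUN and JUNB did not pass the test. Of the 6 tested members, 2 rose and 1 fell, against 20.4% of all 6759 tested genes that rose and 16.1% that fell (limma, Benjamini-Hochberg adjusted p below 0.05). With no intensity trend the members were 2 that rose and 0 that fell, against 18.3% and 12.3% of all tested genes. At this background, the count of members called is not particular to the members. The median average log2 change of the 6 was 0.06, against 0.01 over all tested genes. In bulk RNA, fewer cells that express a gene and less of its RNA per cell cannot be told apart.

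EGR1, a zinc finger activator induced by growth factors, stress and cell injury, had intensities of 827 (p73 shRNA) and 855 (ns) at 100% confluence, against 188 (p73 shRNA) and 197 (ns) at 40%. Both arrays of confluent cells were higher than both arrays at 40%. How many of all tested genes separate in this way was not counted. The ratio was 4.20-fold with p73 shRNA and 4.15-fold with ns shRNA, and the average log2 change was 2.06 (SE 0.20, limma adjusted p 5.91e-23). That p takes the pooled spread as exact; in the fit with no intensity trend limma gave an adjusted p of 2.28e-07 and a 95% interval of 1.69 to 2.43. The second EGR1 probe set was dimmer, at 303 (p73 shRNA) and 338 (ns) in confluent cells against 52.6 and 62.8 at 40%, and its log2 ratios were 2.29 with p73 shRNA and 2.23 with ns shRNA. Of all tested genes, 3.23% were at least 2-fold higher at confluence with both hairpins, and EGR1 was the member that met this.

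JUND, the Jun protein known in mouse fibroblasts for its abundance in resting cells, had intensities of 2489 (p73 shRNA) and 3018 (ns) at 100% confluence, against 1324 (p73 shRNA) and 1328 (ns) at 40%. The arrays at 40% were nearly equal. The ratio was 1.87-fold with p73 shRNA and 2.26-fold with ns shRNA, with an average log2 change of 1.04 (SE 0.15, limma adjusted p 1.04e-10, and 0.000362 with no intensity trend). The other JUND probe sets lay below the filter and were also brighter in confluent cells. The brighter of them had 145 (p73 shRNA) and 149 (ns) at 100%, against 75.5 and 50.2 at 40%. The dimmer had 150.3 (p73 shRNA) and 150.1 (ns) at 100%, against 46.9 and 57.2 at 40%. The names of these dim probe sets and of the brightest JUN probe set end in _x_at, which marks probes that can also bind other transcripts. At least 1.5-fold higher at confluence with both hairpins were 9.96% of tested genes, among them EGR1 and JUND.

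FOSL1, the Fra-1 protein that lacks the transactivation domain of FOS, had 1615 (p73 shRNA) and 1320 (ns) at 100% confluence, against 2187 (p73 shRNA) and 1846 (ns) at 40%. The log2 ratios were -0.43 with p73 shRNA and -0.48 with ns shRNA. The average change was -0.46 (SE 0.15, limma adjusted p 0.00989). This call was lost without the intensity trend (limma adjusted p 0.0565) and without the hairpin in the model (limma adjusted p 0.0807), at the same change. FOSL2, the related Fra-2 protein, had 330.2 (p73 shRNA) and 411 (ns) at 100%, against 463 (p73 shRNA) and 385 (ns) at 40%. These groups overlapped, and the average change was -0.19 (limma adjusted p 0.485). Its other probe sets, both below the filter, had log2 ratios of -0.62 and -1.57 with p73 shRNA and of 0.17 and -0.50 with ns shRNA.

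JUN, the founding Jun protein, had 1838 (p73 shRNA) and 1695 (ns) at 100% confluence, against 2077 (p73 shRNA) and 1828 (ns) at 40%, on its brightest probe set. The range over the arrays was 0.29 on the log2 scale, the narrowest of the tested members. The average change was -0.14 (SE 0.15, limma adjusted p 0.488), with a 95% interval of -0.51 to 0.23 without the intensity trend. The 4 JUN probe sets disagreed. The dimmest had 228 (p73 shRNA) and 202 (ns) at 100%, against 180 (p73 shRNA) and 101 (ns) at 40%, an average change of 0.63 that passed when every probe set was tested as its own feature (limma adjusted p 0.0495). In that fit the remaining probe sets, with averages of 0.13 and 0.01, did not pass. The mean over the 4 probe sets gave an average of 0.15 (limma adjusted p 0.478), so JUN has no settled direction at confluence.

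JUNB, a Jun protein that is a weaker activator than JUN, had 409 (p73 shRNA) and 256 (ns) at 100% confluence, against 228 (p73 shRNA) and 312 (ns) at 40%. The groups overlapped: the ratio was 1.76-fold with p73 shRNA and 0.829-fold with ns shRNA. The average change was 0.27 (SE 0.22, limma adjusted p 0.347). The difference between the hairpins, 1.09 on the log2 scale, is the model's only residual degree of freedom and has no test.

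**Figure D2:**
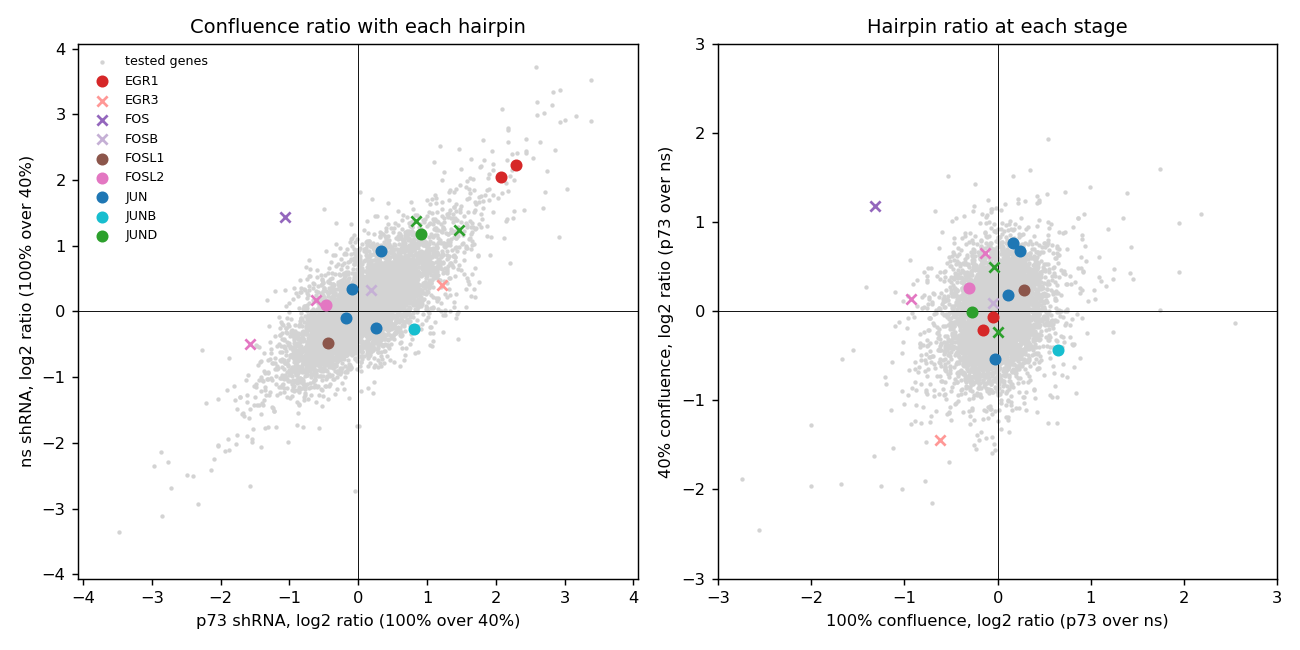
Log2 ratios of all 17 member probe sets (coloured; circles above and crosses below the brightness filter) over the 6759 tested genes (grey); left, confluence ratio with p73 shRNA (horizontal) and ns shRNA (vertical), right, hairpin ratio at 100% (horizontal) and 40% confluence (vertical). EGR1 and JUND lie in the upper right of the left panel. FOS lies in a quadrant of opposite signs in both panels, as do JUNB and the FOSL2 probe sets other than the dimmest.

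The dim members gave no usable confluence ratio. FOS, the partner of Jun proteins in the early serum response, had intensities of 4.25 (p73 shRNA) and 27.9 (ns) at 100% confluence, against 21.4 (p73 shRNA) and 2.91 (ns) at 40%. Its order on the arrays followed neither confluence nor hairpin. FOSB, a close relative of FOS, had 5.65 and 6.25 at 100%, against 3.53 and 2.61 at 40%, between the 5.38th and the 13.9th percentile of its arrays. EGR3, which in mouse is an EGR protein of muscle spindles and lymphocytes, had 25.1 (p73 shRNA) and 44.9 (ns) at 100%, against 4.21 (p73 shRNA) and 31.3 (ns) at 40%. In the fit without the brightness filter, none of these 3 passed for confluence (limma adjusted p 0.881 for FOS, 0.723 for FOSB and 0.316 for EGR3). A gene below the filter cannot be called absent or stable.

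The second comparison asked whether these factors differ between cells with the p73 hairpin and cells with the control hairpin. None of the 6 tested members passed the test, against 2.72% of the 6759 tested genes, and 1.09% with no intensity trend. An unadjusted limma p below 0.05 was found for 0 of 6 members, against 13.6% of all tested genes. The count was also 0 in each of the 9 alternative fits. Among the tested members the largest average change was that of FOSL1, with 1615 (p73 shRNA) against 1320 (ns) at 100% confluence and 2187 (p73 shRNA) against 1846 (ns) at 40%. FOSL1 was higher with p73 shRNA at both stages, by log2 ratios of 0.29 and 0.24, with an average of 0.27 (limma adjusted p 0.448) and a 95% interval of -0.10 to 0.64 without the intensity trend. EGR1 averaged -0.06 (limma adjusted p 0.952), with a 95% interval of -0.43 to 0.31 without the intensity trend, and JUND -0.14 (limma adjusted p 0.777), with an interval of -0.52 to 0.24. JUN averaged 0.15 (interval -0.22 to 0.52), JUNB 0.11 (-0.35 to 0.57) and FOSL2 -0.02 (-0.42 to 0.37) on the same scale and fit. These intervals do not show that the hairpins act alike.

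JUNB was higher with p73 shRNA at 100% confluence, by a log2 ratio of 0.65, and lower at 40%, by -0.43. Opposite directions with a difference of at least 2-fold between the stages were found for 2.00% of tested genes. EGR3 was lower with p73 shRNA at both stages, by -0.62 at 100% and -1.44 at 40%, from intensities near the background; without the brightness filter its average was -1.03 (limma adjusted p 0.583).

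**Figure D3:**
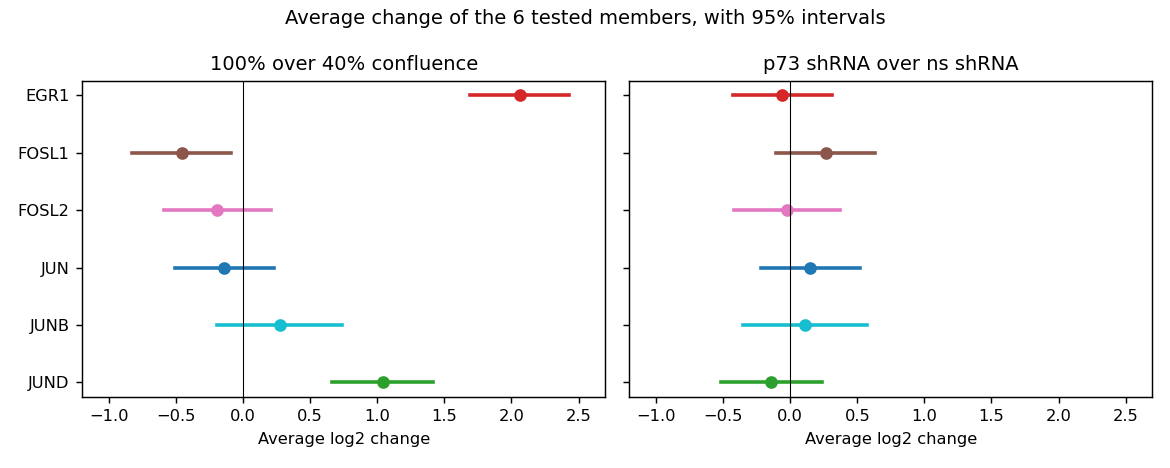
Average log2 change (points) of the 6 tested members with 95% intervals from limma without the intensity trend (bars); left, 100% over 40% confluence, right, p73 shRNA over ns shRNA. At confluence the intervals of EGR1 (1.69 to 2.43) and JUND (0.67 to 1.42) lie above 0, and that of FOSL1 (-0.83 to -0.09) lies below 0. The intervals are not adjusted for the number of genes, and FOSL1 did not pass after adjustment in this fit. Every hairpin interval spans 0.

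Of the other early response genes, 31 of 33 had a probe set and 24 passed the filter. At confluence 6 rose, 10 fell and 8 did not pass, with a median log2 change of -0.09 against 0.01 over all tested genes. Of the 24, 25.0% rose and 41.7% fell, against 20.4% and 16.1% of all tested genes. Neither this list nor those below were tested as a whole. CCN2, a matricellular protein induced by SRF and YAP, had 512 (p73 shRNA) and 765 (ns) at 100%, against 4079 and 3951 at 40%, an average of -2.66 (SE 0.15, limma adjusted p 7.37e-64, and 3.38e-08 with no intensity trend). Its relative CCN1 (average -1.15), the stress gene GADD45B (-1.74), the small GTPase RHOB (-1.15) and the zinc finger factor KLF6 (-1.09) fell too. KLF4, a zinc finger factor known in growth arrest, rose by 1.68, with 825 (p73 shRNA) and 782 (ns) at 100% against 247 and 238 at 40%. The directions among early response genes were therefore mixed, and EGR1 had the direction of KLF4. With p73 shRNA, 0 of the 24 passed (limma), against 2.72% of all tested genes. Of the 24, 2 had an unadjusted limma p below 0.05, against 13.6% of all tested genes.

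Among SRF, its ternary complex factors and the upstream kinases, 20 of 26 had a probe set and 16 passed the filter. At confluence 4 rose (25.0%, against 20.4% of all tested genes), 1 fell (6.25%, against 16.1%) and 11 did not pass, with a median of 0.10. These 5 calls became 3 after quantile normalization, without the brightness filter, with averaged probe sets and without the hairpin in the model. SRF, the factor that binds CArG boxes, was the one that fell, with 256 (p73 shRNA) and 234 (ns) at 100% against 437 and 463 at 40%. Its average was -0.85 (SE 0.21, limma adjusted p 0.000412, and 0.00164 with no intensity trend). The ternary complex factor ELK3 rose by 0.52. The kinases RPS6KA5, which phosphorylates CREB and histone H3, and RPS6KA1, an ERK substrate, rose by 0.99 and 0.76. None of the 16 passed with p73 shRNA (limma), against 2.72% of all tested genes. Of the 16, 2 had an unadjusted limma p below 0.05, against 13.6% of all tested genes.

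Of the other basic leucine zipper factors that can pair with AP-1 proteins, 13 of 16 had a probe set and 8 passed the filter. At confluence 4 of the 8 rose, against 20.4% of all tested genes, and 3 fell, against 16.1%. The other 1 did not pass, and the median log2 change was 0.40, against 0.01 over all tested genes. Without the brightness filter 2 rose and 0 fell, and MAFG, ATF5 and BATF3 were among the calls lost; averaged probe sets left 4 calls and the model without the hairpin 3. ATF2, a partner of JUN at CRE sites, had 724 (p73 shRNA) and 1172 (ns) at 100% confluence, against 291 (p73 shRNA) and 572 (ns) at 40%. It rose at confluence by an average of 1.15 (SE 0.18, limma adjusted p 3.60e-09, and 0.000141 with no intensity trend). It was the 1 gene of the 8 that passed with p73 shRNA (12.5%, against 2.72% of all tested genes). ATF2 fell by an average of 0.82 on the log2 scale (SE 0.18, limma adjusted p 0.000834, and 0.0312 with no intensity trend). Its log2 ratios were -0.69 at 100% and -0.95 at 40%. The ATF2 call with p73 shRNA was lost without the brightness filter, with averaged probe sets and without confluence in the model. MAFF, a small Maf protein, rose at confluence by 0.79, and MAFG and ATF5 fell by 0.75 and 0.66 on the log2 scale. BATF3 rose by 0.73, with ratios of 1.39 with p73 shRNA and 0.07 with ns shRNA.

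Textbook targets were split at confluence. Of the EGR1 corepressors and targets, 11 of 13 had a probe set and 9 passed the filter. Of the 9, 3 rose (33.3%, against 20.4% of all tested genes), 3 fell (33.3%, against 16.1%) and 3 did not pass (median 0.01). NAB1, a corepressor that binds EGR proteins, rose by 0.55, with 807 (p73 shRNA) and 841 (ns) at 100% against 556 and 560 at 40%. The adhesion molecule ICAM1 (0.91) and the receptor EGFR (0.57) rose, and tissue factor F3 (-1.62), the growth factor FGF2 (-0.92) and thrombospondin THBS1 (-0.74) fell. Of the AP-1 targets, 23 of 25 had a probe set and 18 passed the filter. Of the 18, 6 rose (33.3%), 6 fell (33.3%) and 6 did not pass (median -0.09). The chemokine CCL2 (2.27) and the gap junction protein GJA1 (0.92) rose, and the growth factor HBEGF (-1.83), the matrix protease MMP3 (-1.60) and cyclin D1, CCND1 (-1.56), fell. With p73 shRNA 0 of the 9 EGR1 corepressors and targets passed (limma), against 2.72% of all tested genes. Of these 9, 1 had an unadjusted limma p below 0.05, against 13.6% of all tested genes. With p73 shRNA 2 of the 18 AP-1 targets passed and fell (11.1%, against 2.72% of all tested genes). They were CCND1 (average -0.77) and the matrix glycoprotein TNC (average -0.66). Both calls were lost without the intensity trend (limma adjusted p 0.0504 and 0.0995). An unadjusted limma p below 0.05 was found for 8 of these 18, against 13.6% of all tested genes. Their median log2 change was 0.03, and 0 of the 18 passed without the intensity trend. Without confluence in the model, 58 of all 6759 genes had an unadjusted limma p below 0.05. Whether 8 of 18 exceeds the share of all genes was not tested.

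**Figure D4:**
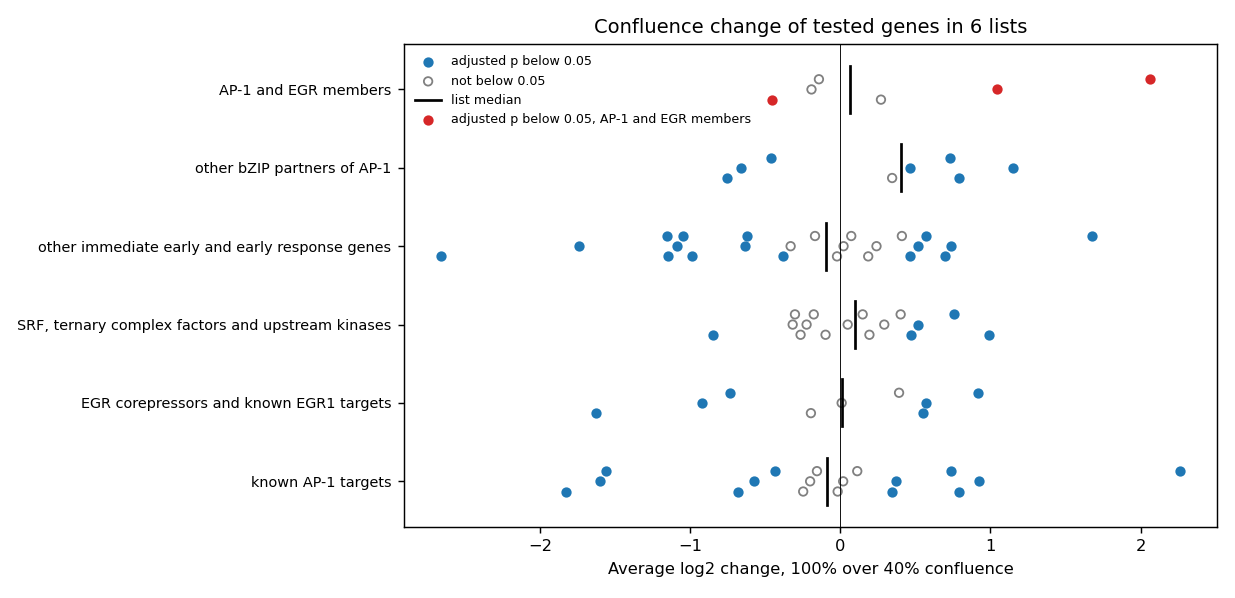
Average log2 change at confluence (100% over 40%) of each tested gene in 6 lists; filled points passed limma's test and open points did not, and black bars are list medians. Each list holds points on both sides of 0, from CCN2 at -2.66 to CCL2 at 2.27.

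Genes with a like pattern were sought for EGR1 and JUND, the tested members with the widest range over the 4 arrays (2.12 and 1.18 on the log2 scale), by the smallest Euclidean distance between centred log2 values. For EGR1 these were IGFBP6, which binds insulin-like growth factors (distance 0.05), TMT1A (0.13) and C14orf132 (0.15). IGFBP6 had 2843 (p73 shRNA) and 2822 (ns) at 100% confluence, against 643 and 679 at 40%. For JUND they were the endocytic GTPase DNM1 (0.03), SPSB3 (0.05) and the nuclear receptor coactivator NCOA2 (0.08). DNM1 had 544 (p73 shRNA) and 645 (ns) at 100%, against 281 and 283 at 40%. With 4 arrays, many of the genes that differ with confluence can come close to any such pattern.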

How the data were processed

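Per the labels, trizol-extracted total RNA was biotinylated and processed by Affymetrix's standard procedure. The authors deposited 1 intensity per probe set and array; the summarising and scaling software was not given in the sources. Values are linear with equal trimmed means on the 4 arrays, and were used as deposited. Of 22277 probe sets, 62 controls stayed out, 19064 had 1 gene symbol, 1043 several and 2108 were not listed; 19052 named ones had current symbols by Entrez ID. No coordinates go with the values; promoters are from RefSeq.

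The pseudocount 11.6 is the 20th percentile of all values, and the filter is the median probe set, 6.94 on the log2 scale. The tests, from limma 3.58.1 (R 4.3.3), had an intensity trend, were two-sided and were Benjamini-Hochberg adjusted over 6759 genes. The additive model has 1 residual degree of freedom. Its prior degrees of freedom were infinite with the trend and 15.8 without it. Each call of a member's brightest probe set is therefore read beside the fit without the trend. The code was tested on simulated data. Members, lists and tests were chosen with earlier results of these data known. Named are all members, up to 6 genes of a list per comparison called with and without the trend, and 3 genes most like each of 2 members; other list genes called with p73 shRNA were added once their values were known. Alternatives were quantile normalization, pseudocounts at the 5th and 40th percentile, no brightness filter, a filter at the 70th percentile, averaged probe sets, each probe set alone, no trend, and no other factor. Figures used matplotlib 3.10.9.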

Additional observations from a re-analysis of the deposited data

Results flagged for a closer look

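The hairpin ratio of JUNB had opposite signs at the stages, 0.65 at 100% and -0.43 at 40% confluence, a difference of 1.09 on the log2 scale. That of FOS was -1.32 at 100% and 1.19 at 40%, a difference of -2.50, with all 4 intensities below the brightness filter. Neither difference was tested, since each group has 1 array.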

How the results depend on the processing

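EGR1 and JUND rose at confluence in all 9 alternatives, with average log2 changes of 1.86 to 2.16 (highest limma adjusted p 0.000301) and 1.02 to 1.17 (highest 0.00293). Of 104 recomputed changes of the 6 tested members, 101 kept their direction and side of the threshold; FOSL1 at confluence, -0.46, missed it without the intensity trend and without the hairpin in the model, and JUN at confluence turned to 0.15 with the mean of its probe sets. Members called at confluence numbered 3, or 2 without the intensity trend or without the hairpin, and 0 with p73 shRNA throughout. The filter settings, each probe set alone, no trend and no other factor leave the log2 change itself the same by construction. In those fits only the adjusted p could move. Averaging probe sets cannot change FOSL1 or JUNB, which have 1 each. The count of 101 therefore says little about the stability of direction. Of the 75 tested list genes, 3 passed with p73 shRNA, against 1 without the trend, 1 with averaged probe sets, and 0 without the filter or without confluence in the model (limma; 58 of all genes had an unadjusted p below 0.05 in that last fit). At confluence the basic leucine zipper list had 7 calls, against 2 with no filter, 3 with no hairpin term, 4 with averaged probe sets and 4 with the filter at the 70th percentile. The SRF list had 5, against 3 in the first 3 of these settings and after quantile normalization, and 2 with the filter at the 70th percentile; that filter leaves fewer genes tested. The AP-1 target list had 12, against 7 with no hairpin term. Without the trend the confluence calls numbered 5 of 8 in the basic leucine zipper list, 14 of 24 early response genes and 4 of 16 in the SRF list. They numbered 6 of 9 in the EGR1 list and 9 of 18 in the AP-1 target list, against 2070 of all 6759 tested genes. Over all genes, calls with p73 shRNA numbered 184, against 106 after quantile normalization, 74 without the trend, 40 with averaged probe sets, 4 without the filter and 0 without confluence; calls at confluence numbered 2471, against 1345 without the hairpin and 1555 without the filter. No scaling moved the median of all genes by over 0.1. The other factor is the block of the additive model, so the fits without it are the unblocked ones; no further pairing was possible with 1 array per group. Signal over background limits FOS, FOSB and EGR3.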
